A study of Mus musculus with 2 samples.

Results

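The genes described here are the cadherins and protocadherins, the cell-surface proteins whose extracellular cadherin repeats bind cells to one another in the presence of calcium. They were chosen by name, as all symbols that begin with Cdh or Pcdh followed by a digit, or by a, b or g in Pcdh names, without the Cdhr genes. That rule found 85 of the 19465 genes of the probe panel, and 56 of them had at least 100 unique molecular identifiers (UMIs, counted molecules) over the spots used. The other 29 held 1379 UMIs in all, and 1 of them, Cdh16, had none. Pcdhb12 with 101 UMIs and Pcdhb13 with 102 lay just inside the minimum, and Pcdhb14 with 97 and Pcdhgb5 with 96 just outside it.

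The study names G2-3 mice, which carry alpha-synuclein with the A53T change, and wild-type mice, all males aged 6 months, with 1 brain section of each profiled by Visium CytAssist on fresh-frozen tissue. The sources used here do not name the promoter of the transgene. The count matrices deposited for the G2-3 and the WT sample were identical, with 0 entries that differed, so they were counted as 1 library, no genotype was assigned to it, and no comparison of genotypes was made. Of the spots marked as tissue, 751 of 2969 in the G2-3 list had no counts in this matrix, against 0 of 2487 in the WT list. Everything below compares places within this 1 section. The section gave 2485 spots with 20997947 UMIs, between 1183 and 80174 per spot with a median of 6686, and the 56 genes together took 37248 UMIs, 0.177% of the total.

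Classical cadherins of types I and II hold neighbouring cells together and tie the membrane to actin through catenins. Protocadherins lack the catenin-binding tail, and the delta-2 protocadherins instead recruit the WAVE actin regulators. The clustered protocadherins are chosen in combinations by single neurons, and their matching at contacts serves self-recognition of dendrites and axons. In the hippocampus, members of both classes take part in the wiring and remodelling of mossy fibre and other synapses.

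By class, 8 of 12 clustered alpha genes, 10 of 21 clustered beta genes and 15 of 18 clustered gamma genes passed the minimum. The symbol Pcdha11 is entered more than once: the entry with 124 UMIs passed, that with 31 did not, and each is counted as a gene. Among the non-clustered genes these were Pcdh1, Pcdh7 and Pcdh9 of the delta-1 group, Pcdh8, Pcdh10, Pcdh17 and Pcdh19 of the delta-2 group, and Pcdh15 and Pcdh20 outside both. Of the cadherins, the type I genes Cdh2 and Cdh4, 10 type II genes, and the atypical Cdh13 and Cdh23 passed. The epithelial cadherin Cdh1 (18 UMIs), Cdh3 (9), the type II genes Cdh12 (59), Cdh18 (10) and Cdh19 (71), and the protocadherins Pcdh11x (65), Pcdh12 (3) and Pcdh18 (78) did not. The C-type isoforms Pcdhac1, Pcdhac2, Pcdhgc3, Pcdhgc4 and Pcdhgc5, with 4765 UMIs in all, fall outside the naming rule and were not analysed. The members on mouse chromosome 18 number 35, among them every clustered gene.

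The section was divided into 15 regions by clustering the spots without any gene of the rule, and each region is called by 2 of its leading genes. The C1ql2/Prox1 region (54 spots) carried 7 of 8 dentate gyrus markers at 2-fold or more over the rest and 2 of 7 CA3 and CA2 markers, as many as any region. Upper cortex markers were carried by the Clec18a/Igfn1 region (6 of 7), deep cortex markers by Myl4/Col5a1 (4 of 9), layer 6b markers by Ccn2/Cplx3 (4 of 5) and entorhinal markers by Penk/Adam33 (3 of 5), and these are called the 4 cortex regions. The Gpr161/Fezf2 region carried 3 CA1 and subiculum markers, Irx2/Spp1 carried 7 of 8 pons markers, and Cartpt/Six3 carried 4 dorsal midbrain and 4 subcortical GABA markers. The Tph2/Slc18a2 region carried 7 of 8 ventral midbrain and 3 of 3 raphe markers, but also 8 of 8 white matter markers. All 8 white matter markers were also carried by Klk6/Gfap and Slc18a3/Cartpt, and all 8 meningeal and vessel markers by Mgp/Igf2. The remaining regions, Slc18a3/Cartpt, Tshz2/Kit, Ddn/Thrsp and Ttr/Slc6a3, were assigned no list. Of these, Ttr/Slc6a3 carried 5 of 8 ventral midbrain markers, Ddn/Thrsp 3 of 8 dentate gyrus markers and Tshz2/Kit 4 of 8 white matter markers. A spot holds several cells, and fewer cells of a type and less RNA per cell cannot be told apart.

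Levels are given as CPM, the UMIs of a gene scaled to 1000000 UMIs of its region. Probe pairs capture genes unequally, so a gene's level is compared only with its own level elsewhere. The ratio of a region to all other spots is given as a log2 ratio with its exact 95% interval, which covers counting error only, since spots of 1 section are not replicates. A count of 0 was set to 3 counts per region for a ratio. A member is counted as different where the ratio is at least 2-fold, and the share of all genes past the same fold is printed beside the count.

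The promoter windows of 5 genes at least 2-fold different in the C1ql2/Prox1 region are printed first: Pcdh20, Cdh9, Pcdh19 and Pcdh8, which were high there, and Pcdh10, which was low. They are a selection. Pcdh15, Cdh23, Cdh7 and Pcdh7, all low there, differed from the rest by more than Pcdh19 and Pcdh8 did. Each is a window of 300 bases from RefSeq on GRCm38.p6, read 5′ to 3′ along the gene, with CG dinucleotides in capitals. The windows of Pcdh20, Pcdh8 and Pcdh10 run from 250 bases before to 50 bases after the start listed for the gene. The Cdh9 window begins past the listed start, chr15:16728550, and lies inside the gene. The Pcdh19 window holds the listed start, chrX:133689044, but reaches farther into the gene.
Pcdh20, chr14:88471347-88471646 (minus strand): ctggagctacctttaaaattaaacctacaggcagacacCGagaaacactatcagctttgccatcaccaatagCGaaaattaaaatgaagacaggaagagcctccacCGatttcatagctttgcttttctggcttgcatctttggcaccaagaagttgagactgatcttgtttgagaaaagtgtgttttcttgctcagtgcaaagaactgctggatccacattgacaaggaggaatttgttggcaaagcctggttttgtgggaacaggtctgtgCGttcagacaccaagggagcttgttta
Cdh9, chr15:16728665-16728964 (plus strand): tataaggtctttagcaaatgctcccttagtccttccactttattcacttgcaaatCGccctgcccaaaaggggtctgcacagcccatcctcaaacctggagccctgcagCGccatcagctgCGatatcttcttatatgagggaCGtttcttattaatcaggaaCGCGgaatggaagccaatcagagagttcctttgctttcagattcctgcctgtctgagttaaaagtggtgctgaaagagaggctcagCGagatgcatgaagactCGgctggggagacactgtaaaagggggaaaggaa
Pcdh19, chrX:133688944-133689243 (minus strand): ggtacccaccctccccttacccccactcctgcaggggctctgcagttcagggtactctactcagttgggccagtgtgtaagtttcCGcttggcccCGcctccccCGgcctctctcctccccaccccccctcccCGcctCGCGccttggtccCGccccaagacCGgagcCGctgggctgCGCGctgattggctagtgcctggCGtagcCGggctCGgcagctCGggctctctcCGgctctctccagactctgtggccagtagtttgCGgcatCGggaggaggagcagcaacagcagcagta
Pcdh8, chr14:79771263-79771562 (minus strand): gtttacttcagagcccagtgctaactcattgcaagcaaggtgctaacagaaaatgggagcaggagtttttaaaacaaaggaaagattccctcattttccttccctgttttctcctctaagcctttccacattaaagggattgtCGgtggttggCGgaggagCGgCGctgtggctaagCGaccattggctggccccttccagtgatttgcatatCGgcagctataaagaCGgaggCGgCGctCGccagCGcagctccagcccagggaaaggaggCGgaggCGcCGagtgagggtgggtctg
Pcdh10, chr3:45378148-45378447 (plus strand): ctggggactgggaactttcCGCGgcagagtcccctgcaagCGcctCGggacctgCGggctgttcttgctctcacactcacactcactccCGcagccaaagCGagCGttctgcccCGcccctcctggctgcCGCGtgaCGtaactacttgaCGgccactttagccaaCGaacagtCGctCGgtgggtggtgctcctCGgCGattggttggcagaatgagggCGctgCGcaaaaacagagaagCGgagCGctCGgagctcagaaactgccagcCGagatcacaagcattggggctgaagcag

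The windows of the 4 genes that were high in the C1ql2/Prox1 region were not all CG-rich or all CG-poor. The Pcdh20 window held 4 CG dinucleotides and the Cdh9 window 8, against 18 for Pcdh19 and 14 for Pcdh8, and the Pcdh10 window held 24. The median over all 32851 promoters of the table was 7. GC content was 43.7% for Pcdh20 and 67.7% for Pcdh19, with a median of 52.7% over the table. On either strand, a TATA box (TATAAA) occurred in the Pcdh8 window and in 13.6% of all promoters, and a GC box (GGGCGG) in the Pcdh19 and Pcdh10 windows and in 35.7% of all promoters. The table held a promoter for 17 of the 56 members.

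Of the 56 members, 23 were at least 2-fold higher in 1 or more of the 15 regions than in all other spots, and 40.9% of the 11003 genes with at least 100 UMIs were too. The classes differed in how far their members spread over the section. All 4 gamma members with at least 500 UMIs stayed within 2-fold of the rest in each region of at least 500000 UMIs, with a widest log2 ratio between 0.51 and 0.92 in size. The widest ratios of the 4 delta-2 members lay between 1.33 and 6.16 in size, where 6.16 came from a Pcdh8 count of 0 set to 3. Those of the 3 delta-1 members lay between 1.43 and 3.29, and those of Cdh13 and Cdh23 at 2.98 and 5.59. Pcdh15 and Pcdh20 reached 4.14 and 4.87. Among members of at least 500 UMIs in the other classes, 1 alpha member reached 1.66, 1 type I member 2.11 and 3 type II members 1.65 to 2.05. These widths also grow where a gene has few UMIs in a region, so they describe the counts and were not tested.

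**Figure D1:**
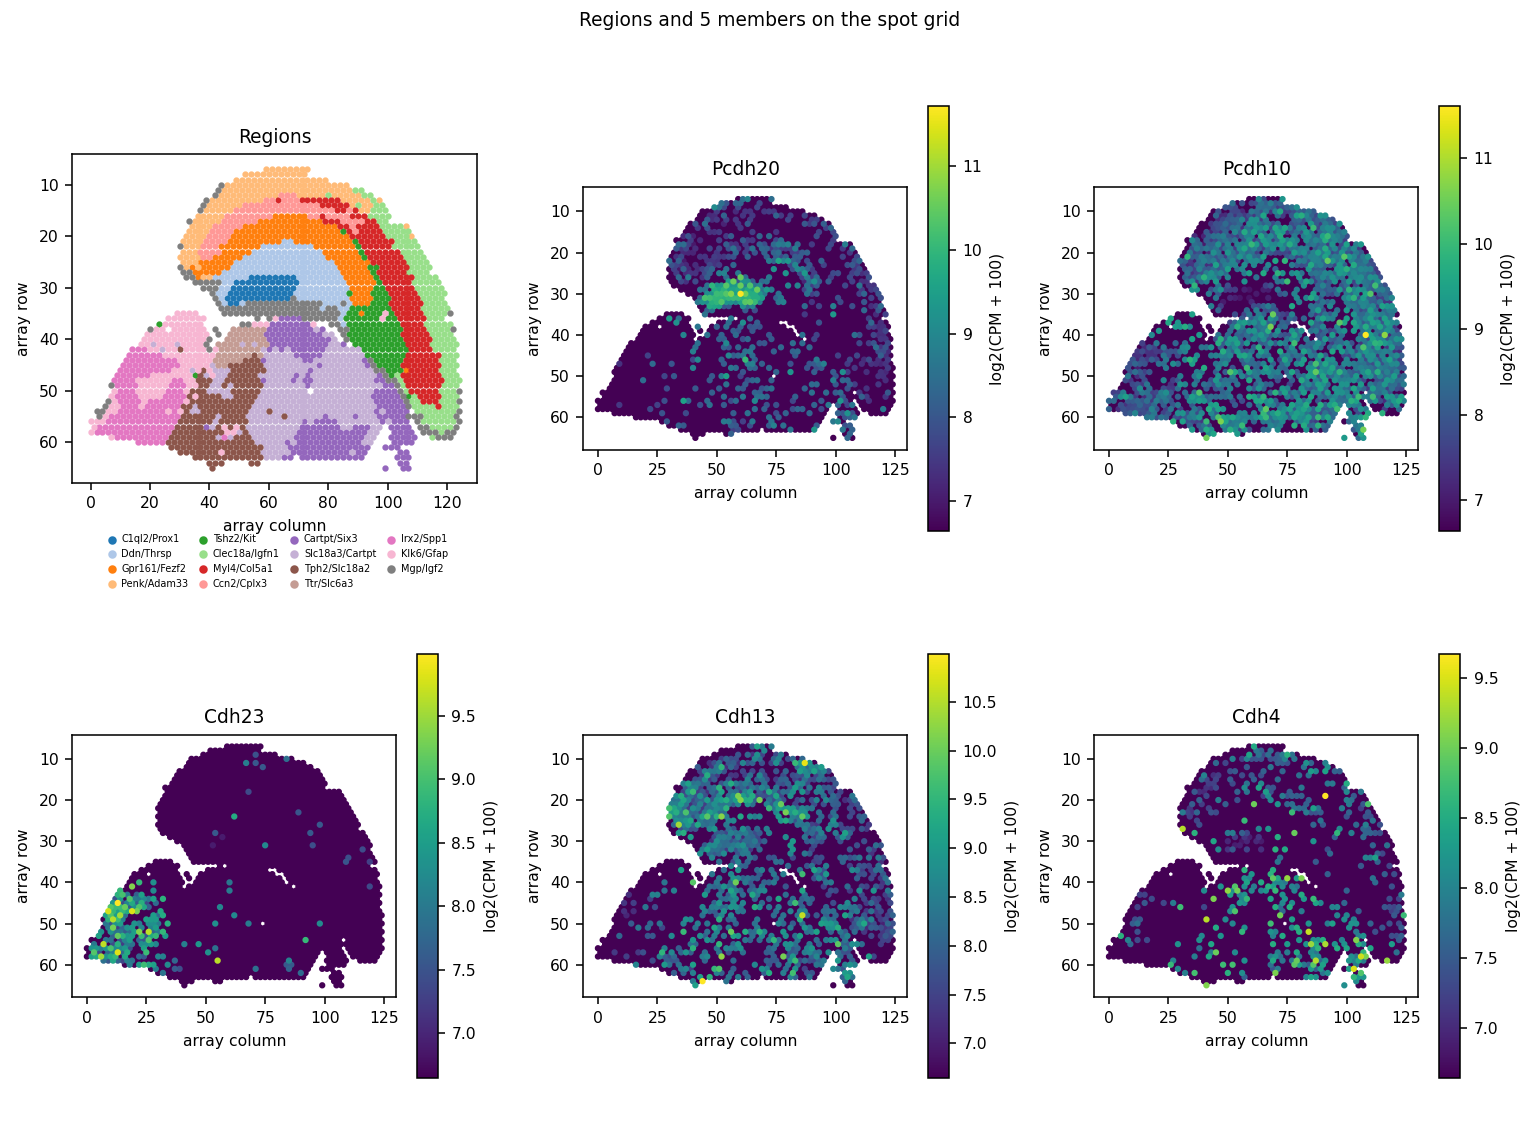
Spot maps of the section by array column and row. The first panel colours the 2485 spots by region, and the others show log2(CPM + 100) per spot for Pcdh20, Pcdh10, Cdh23, Cdh13 and Cdh4. Pcdh20 is bright over the C1ql2/Prox1 region, where Pcdh10 is dark, and Cdh23 is bright over the Irx2/Spp1 region.

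The C1ql2/Prox1 region held 1776593 UMIs and had the highest median per spot. Over the rest of the section, 6 of 56 members were at least 2-fold higher there (7.03% of all genes) and 12 at least 2-fold lower (20.8% of all genes). Pcdh20, Cdh9, Pcdh19, Pcdh8 and the clustered genes Pcdhb16 and Pcdhb7 were the 6 higher ones. The median log2 ratio of the members was 0.18, against -0.09 over all genes.

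Pcdh20, a protocadherin outside the delta groups that is known in mouse cortex for placing layer 4 neurons, had 1682 UMIs in the C1ql2/Prox1 region, 66.1% of its UMIs in the section. Its level there was 947 CPM, and the other 14 regions lay between 4.55 in Irx2/Spp1 and 156 in Ddn/Thrsp. All 54 spots had Pcdh20, with 3 UMIs in the lowest, a median of 25.5 and 164 in the highest. The log2 ratio to the rest was 4.40 (4.28 to 4.52), the highest of the 56 members in that region. Next after Ddn/Thrsp came Gpr161/Fezf2 at 102 and Cartpt/Six3 at 57.6 CPM, and the intervals of neighbours below these overlapped.

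Cdh9, a type II cadherin known in mouse for the mossy fibre synapses of dentate granule cells on CA3, had 150 of its 265 UMIs in the region. It reached 84.4 CPM there, against 12.7 in Penk/Adam33, its next highest region. Its log2 ratio to the rest was 3.82 (3.46 to 4.18). Pcdh19, an X-linked delta-2 protocadherin whose loss is a cause of epilepsy in people, stood at 383 CPM in C1ql2/Prox1, at 140 in Penk/Adam33 and at 115 in Gpr161/Fezf2. All its other regions were between 29.4 and 98.9, and the log2 ratio of C1ql2/Prox1 to the rest was 2.33 (2.20 to 2.46).

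Pcdh8, a delta-2 protocadherin known from rat hippocampus as induced by neuronal activity, stood at 315 CPM in C1ql2/Prox1, with a log2 ratio of 2.01 (1.87 to 2.15). Penk/Adam33 followed with 199, which was 1.23 (1.07 to 1.38) over the rest, and Clec18a/Igfn1 with 129. At the other end the Irx2/Spp1 region had 0 Pcdh8 UMIs in 163 spots and 1979997 UMIs, against 108 CPM in the rest. With this 0 set to the fixed count used for ratios, Pcdh8 was 71.5-fold lower there. That fold is not a lower bound: the interval of the log2 ratio ended at -5.86, and that of the level at 1.86 CPM.

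Pcdh10 ran the other way. This delta-2 protocadherin, which guides axons and binds the WAVE complex, had between 116 and 329 CPM in the other 14 regions and 12.9 in C1ql2/Prox1. That is a log2 ratio of -4.11 (-4.77 to -3.52), from 23 of 4325 UMIs. Its highest region was Myl4/Col5a1 with 329 (log2 0.77, 0.66 to 0.89), followed by Cartpt/Six3 with 301. The delta-2 genes Pcdh19 and Pcdh8 were thus high where Pcdh10 was low, and the fourth, Pcdh17, stood at 120 CPM in C1ql2/Prox1, within 2-fold of the rest.

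Pcdh7, a delta-1 protocadherin, had 10 UMIs in C1ql2/Prox1, a level of 5.63 CPM and a log2 ratio of -3.29 (-4.35 to -2.41). Pcdh15, known from the tip links of inner ear hair cells, had 3 UMIs there and a log2 ratio of -4.14 (-6.42 to -2.59). The type II cadherins Cdh6 and Cdh20 had 0 UMIs there. With the 0 set to 3 counts they were 6.59-fold and 6.04-fold lower than in the rest, and the intervals of their log2 ratios ended at -2.41 and -2.28. The low members were therefore spread over several classes.

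The values held in both parts of the region when its spots were split at their median array column. In the lower columns (29 spots) and the higher columns (25 spots), Pcdh20 stood at 887 and 1020 CPM, Pcdh19 at 398 and 364, Pcdh8 at 346 and 276, and Cdh9 at 83.7 and 85.3. Pcdh10 stood at 14.3 and 11.3. The split is within 1 section and is no replicate.

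Levels of the high members fell over the first 3 spots outside the region. Pcdh20 stood at 947 CPM in the region, 370 in the 34 spots 1 spot away, 94.97 at 2 spots, 41.6 at 3 spots and 41.0 farther off. Pcdh19 took the values 383, 120, 55.9, 41.6 and 76.1 over the same steps, and Pcdh8 the values 315, 180, 106, 29.7 and 77.2. The granule cell genes C1ql2, with 1650 in the region and 576 at 1 spot, and Prox1, with 413 and 320, fell over the same spots, so the step around the region was shared with the genes that mark it.

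**Figure D2:**
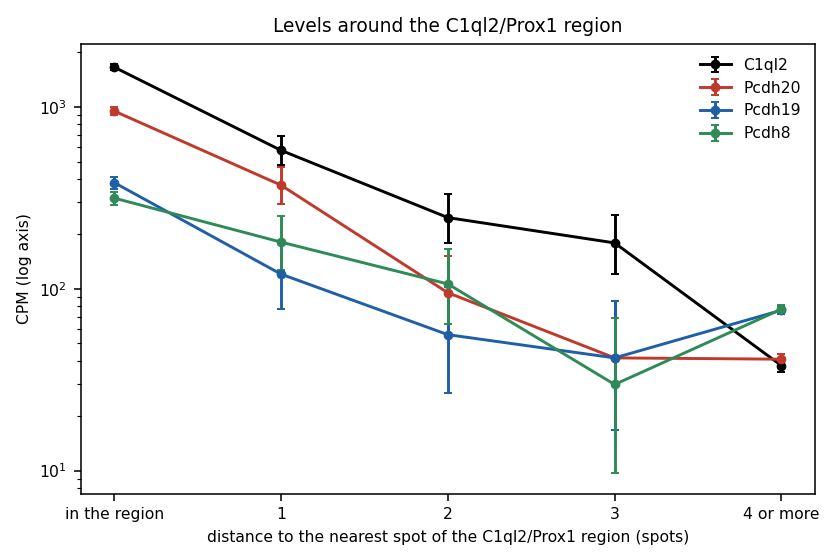
CPM (log axis) of C1ql2, Pcdh20, Pcdh19 and Pcdh8 by distance in spots from the C1ql2/Prox1 region, with bars for the exact 95% counting interval. Pcdh20 is at 947 in the region and 41.6 at 3 spots, while Pcdh19 and Pcdh8 are higher at 4 or more spots than at 3.

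Set directly against the 4 cortex regions (8091488 UMIs), 36 members had at least 100 UMIs over both. Of these, 4 were at least 2-fold higher in C1ql2/Prox1 (6.18% of 9008 genes) and 6 at least 2-fold lower (13.6% of genes), and the median log2 ratio was 0.11, against -0.0028 over all genes. Pcdh20 had 1682 UMIs in C1ql2/Prox1 and 285 in cortex, which is 947 against 35.2 CPM and a 26.9-fold difference (log2 4.75, 4.57 to 4.93). Cdh9 was 12.2-fold higher (log2 3.61, 3.16 to 4.08), Pcdh19 4.66-fold (2.22, 2.06 to 2.38) and Pcdh8 2.56-fold (1.36, 1.21 to 1.51). Pcdh8 missed 2-fold, at a log2 ratio of 0.86, when both sides were taken from the lower array columns alone.

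The lower members were Pcdh10, Pcdh15, Pcdh7, Cdh7, Cdh22 and Cdh10. Pcdh10 had 12.9 CPM in C1ql2/Prox1 and 249 in cortex, a log2 ratio of -4.27 (-4.93 to -3.68). Pcdh15 had 3 and 251 UMIs (log2 -4.20, -6.49 to -2.64), Pcdh7 10 and 524 (-3.52, -4.59 to -2.63) and Cdh7 2 and 104 (-3.51, -6.58 to -1.62). Cdh22 and Cdh10, both type II, were nearer the fold, at -1.52 (-2.62 to -0.60) and -1.01 (-1.96 to -0.18). No clustered member differed by 2-fold in this comparison.

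**Figure D3:**
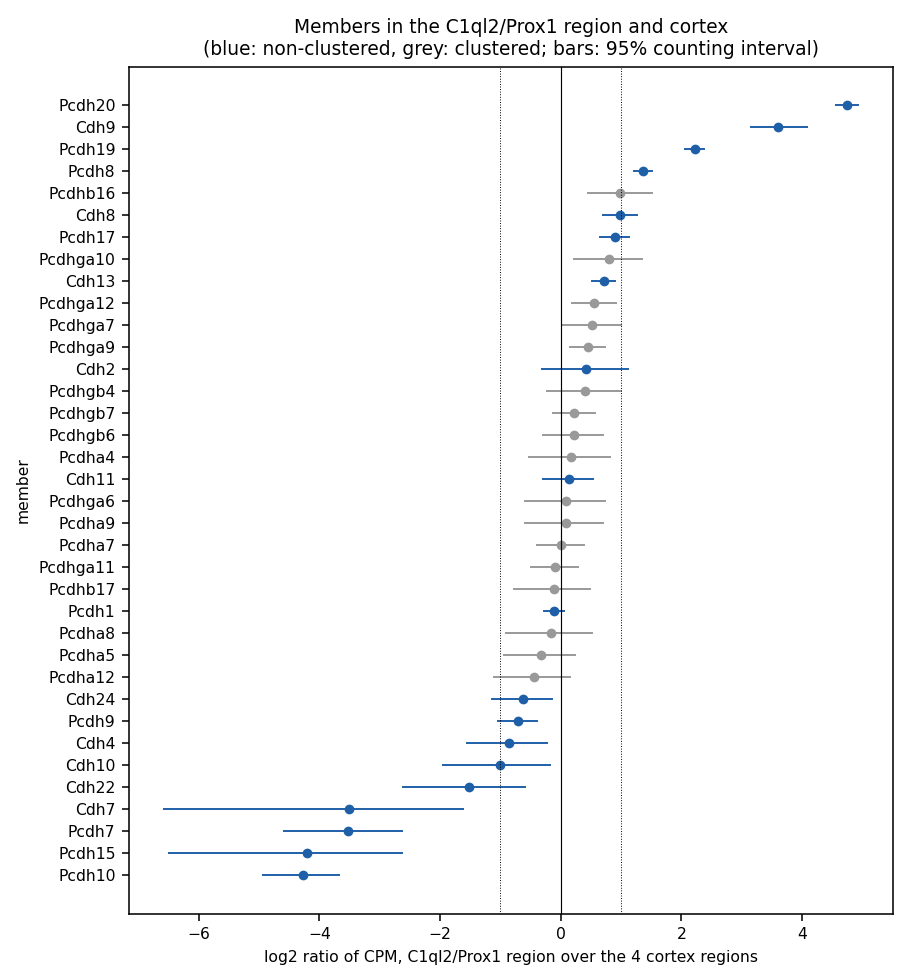
Log2 ratio of CPM in the C1ql2/Prox1 region over the 4 cortex regions for the 36 members measured, with exact 95% counting intervals. Points in blue are non-clustered and in grey clustered members, and dotted lines mark 2-fold. Pcdh20 at 4.75 and Pcdh10 at -4.27 are the ends of the range, and all grey points lie between the dotted lines.

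The partners of the cadherins did not follow 1 direction in this comparison. Of 6 catenins measured, 0 were 2-fold higher and 2 lower, Ctnna1 (alpha-E-catenin, log2 -1.06, -1.41 to -0.73) and Jup (plakoglobin, -1.82, -2.26 to -1.41), with a list median of -0.64. Of 9 WAVE complex genes, 2 were 2-fold higher and 0 lower, with a median of 0.36. Wasf1, which encodes WAVE1, had 141 CPM in C1ql2/Prox1 and 42.9 in cortex (log2 1.71, 1.47 to 1.95), and Cyfip1 148 and 65.6 (1.17, 0.95 to 1.39).

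Among 9 other genes of the cadherin superfamily, 2 were 2-fold higher and 4 lower, with a median of -0.44. Fat4, a giant cadherin, had 255 UMIs in C1ql2/Prox1 and 75 in cortex, 15.5-fold higher in CPM (log2 3.95, 3.58 to 4.34). Clstn2, a calsyntenin of the postsynaptic membrane, was higher by 1.72 (1.55 to 1.88). Its relatives Clstn1 and Clstn3 were lower, at -1.10 (-1.19 to -1.02) and -1.16 (-1.31 to -1.01), as were Fat3 at -1.44 (-2.54 to -0.52) and Dchs1 at -1.01 (-1.77 to -0.32). Neither of the 2 nectin genes measured differed by 2-fold.

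The Irx2/Spp1 region had 2 high members and a longer list of low ones. Over the rest, 2 of 56 members were at least 2-fold higher (4.07% of all genes) and 15 lower (12.4% of all genes). Cdh23, an atypical cadherin that forms the tip links of hair cells together with Pcdh15, had 456 UMIs there, 83.4% of its total. Its level was 230 CPM, against 57.9 in Klk6/Gfap, 19.5 in Tph2/Slc18a2 and at most 6.77 in the other 12 regions. The log2 ratio to the rest was 5.59 (5.26 to 5.93). Within the region, the lower array columns stood at 264 and the higher ones at 170 CPM.

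Pcdh15, the tip link partner, did not share this place. It stood at 13.1 CPM in Irx2/Spp1, with a log2 ratio of -1.14 (-1.77 to -0.57), and its highest region was Tph2/Slc18a2 at 46.8 (log2 0.83, 0.37 to 1.25). Cdh7, a type II cadherin, was the other high member of Irx2/Spp1, with 94 UMIs, 47.5 CPM and a log2 ratio of 2.04 (1.68 to 2.40). Clec18a/Igfn1 followed at 26.7. Besides Pcdh8, the low members of Irx2/Spp1 included Pcdh20 at -4.87 (-6.01 to -3.95), Cdh13 at -2.98 (-3.54 to -2.47) and Pcdh1 at -2.12 (-2.46 to -1.79).

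**Figure D4:**
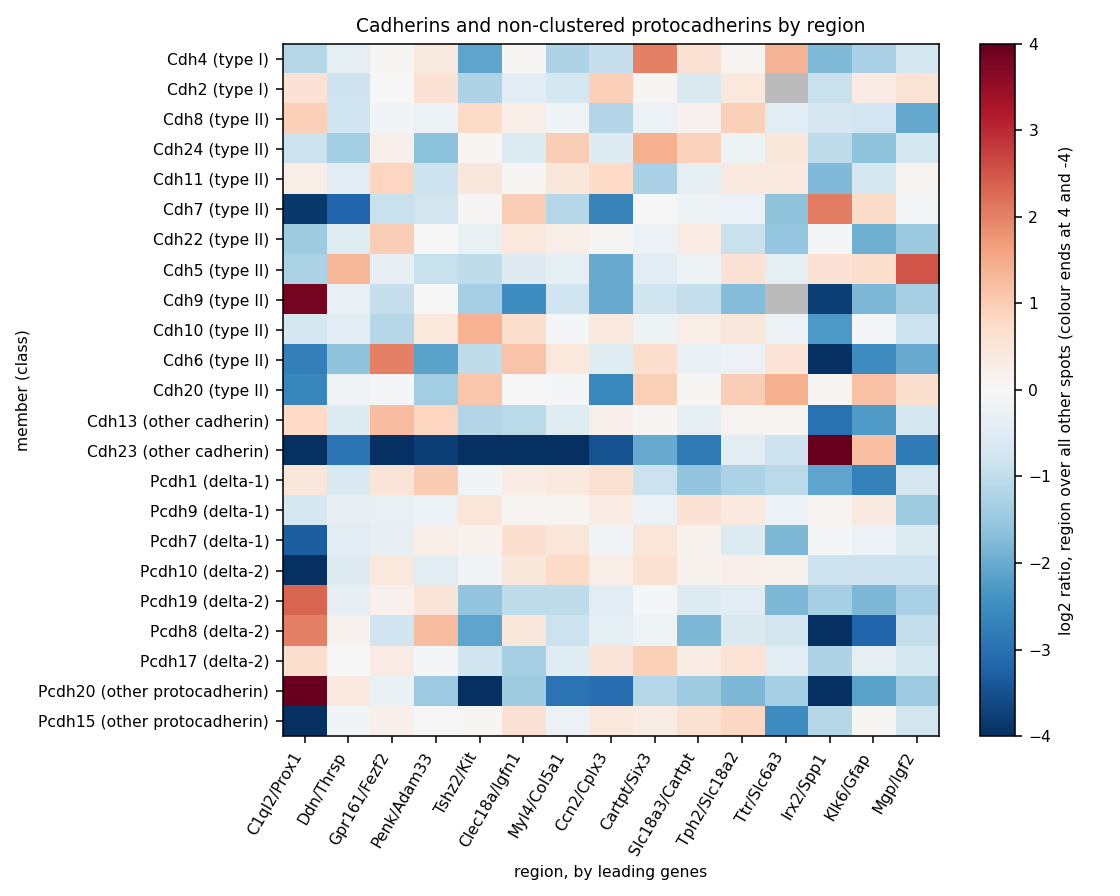
Log2 ratio of each region over all other spots for the 23 non-clustered members (rows, by class) in 15 regions (columns), with the colour scale ending at 4 and -4. Counts of 0 are drawn at the 3-count floor, and grey cells (Cdh2 and Cdh9 in Ttr/Slc6a3) have 0 UMIs and no ratio. Cdh9 and Pcdh20 are red in C1ql2/Prox1, where Pcdh10 and Pcdh15 are blue, and Cdh23 is red in Irx2/Spp1.

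Other type I and II cadherins were highest in different regions. Cdh4, or R-cadherin, had 132 UMIs and 89.4 CPM in Cartpt/Six3, a log2 ratio of 2.004 (1.71 to 2.29), and 6.46 CPM in Tshz2/Kit, its lowest region. Cdh24, a type II cadherin, was also highest in Cartpt/Six3, at 93.4 CPM and 1.41 (1.14 to 1.68) over the rest, followed by Myl4/Col5a1 at 70.4. With Pcdhb10 (14 UMIs, log2 1.01), they were the 3 members at least 2-fold higher in Cartpt/Six3, against 2.67% of all genes.

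Cdh6, a type II cadherin, stood at 31.9 CPM in Gpr161/Fezf2, at 19.6 in Clec18a/Igfn1 and at 0.505, from 1 UMI, in Irx2/Spp1. Its log2 ratio in Gpr161/Fezf2 was 2.01 (1.57 to 2.45). Cdh13, or T-cadherin, which is held in the membrane by a GPI anchor, was highest in the same region, at 236 CPM and 1.23 (1.09 to 1.38) over the rest. Penk/Adam33 at 188 and C1ql2/Prox1 at 185 did not differ beyond their intervals. Within Gpr161/Fezf2 Cdh13 stood at 287 in the lower and 180 in the higher columns, and in the higher columns of each region its log2 ratio was 0.88. These were the 2 members at least 2-fold higher in Gpr161/Fezf2, against 1.6% of all genes.

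Smaller counts marked 2 more type II genes. Cdh10 was highest in Tshz2/Kit, with 22 UMIs, 28.4 CPM and a log2 ratio of 1.38 (0.68 to 2.01). Cdh20 had 15 UMIs in the same region and a log2 ratio of 1.11 (0.25 to 1.87), with higher levels in Klk6/Gfap at 20.6 and, from 5 UMIs, Ttr/Slc6a3 at 24.5 CPM. Cdh10 and Cdh20 were the 2 members at least 2-fold higher in Tshz2/Kit, against 1.68% of all genes. Cdh8, Cdh11 and Cdh22 were not 2-fold higher in any region. Cdh8 was highest in Tph2/Slc18a2 at 86.9 and C1ql2/Prox1 at 83.3 CPM, Cdh11 in Gpr161/Fezf2 at 51.3 and Ccn2/Cplx3 at 50.01, and Cdh22 in Gpr161/Fezf2 at 25.9.

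Cdh2, or N-cadherin, the classical cadherin of most brain synapses, had 188 UMIs and levels between 3.87 CPM in Tshz2/Kit, from 3 UMIs, and 16.4 in the 14 regions where it was seen. It was highest in Ccn2/Cplx3, with 20 UMIs and a log2 ratio of 0.95 (0.20 to 1.62). In Ttr/Slc6a3 it had 0 UMIs, and at the 204097 UMIs of that region the interval of its level reached 18.1 CPM.

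The delta-1 protocadherins differed in range. Pcdh1 stood at 282 CPM in Penk/Adam33, with a log2 ratio of 1.03 (0.90 to 1.15), at 230 in Ccn2/Cplx3, and at 24.3 in Klk6/Gfap. Pcdh8 and Pcdh1 were the 2 members at least 2-fold higher in Penk/Adam33, against 1.72% of all genes. Pcdh9 had the narrowest range of the group, highest in Slc18a3/Cartpt at 116 (log2 0.57, 0.36 to 0.78) and lowest in Mgp/Igf2 at 31.0 (-1.43, -2.07 to -0.85). Pcdh7 was highest in Clec18a/Igfn1 at 76.4 (0.68, 0.45 to 0.92). Pcdh17, a delta-2 member known in mouse for organising synaptic vesicles in corticobasal ganglia circuits, was highest in Cartpt/Six3 at 145 (0.96, 0.75 to 1.17) and lowest in Clec18a/Igfn1 at 33.8.

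No member was 2-fold higher in the Slc18a3/Cartpt, Myl4/Col5a1 and Ccn2/Cplx3 regions, where 3.74%, 1.21% and 2.05% of all genes were. The smallest region, Ttr/Slc6a3 (47 spots), had 5 such members against 10.2% of all genes. They had few UMIs, 14 for Cdh4 (log2 1.37, 0.49 to 2.13), 5 for Cdh20, 4 for Pcdhga3 and 3 each for Pcdhb7 and Pcdhb18, and of these only Cdh4 had an interval above 0.

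Low members were counted the same way. In the cortex regions, 6 of 56 members were at least 2-fold lower than in the rest in Clec18a/Igfn1 (8% of all genes), 7 in Myl4/Col5a1 (7.05%), 11 in Ccn2/Cplx3 (11.8%) and 6 in Penk/Adam33 (8.54%), and Pcdh20 and Cdh23 were among them in all 4. There were 3 in Gpr161/Fezf2 (8.07%), 11 in Tshz2/Kit (6.5%) and 14 in Ddn/Thrsp (13.5%). Below the cortex and hippocampus on the map, there were 3 in Cartpt/Six3 (5.63%), 4 in Slc18a3/Cartpt (7.28%), 3 in Tph2/Slc18a2 (8.5%) and 11 in Ttr/Slc6a3 (11.4%). Pcdh20 was among the low members of all of these except Gpr161/Fezf2 and Ddn/Thrsp. For Pcdh20 and Cdh23, the rest takes in the region that held 66.1% or 83.4% of their UMIs, C1ql2/Prox1 or Irx2/Spp1. A low call of these genes can therefore fall on a region with an ordinary level. Pcdh20 stood at 48.9 CPM in Clec18a/Igfn1 and 57.6 in Cartpt/Six3, against a median of 47.9 over the regions.

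Between cortex regions, Clec18a/Igfn1 was set against Myl4/Col5a1, that is upper against deep cortex by their markers. Of 21 members measured, 2 were at least 2-fold higher in Clec18a/Igfn1 (1.55% of 6854 genes) and 1 lower (1.43% of genes). Pcdh20 had 48.9 CPM in Clec18a/Igfn1 and 17.0 in Myl4/Col5a1 (117 and 36 UMIs, log2 1.52, 0.97 to 2.10). Pcdh8 had 129 and 57.2 (log2 1.17, 0.87 to 1.49). Cdh24 had 27.6 and 70.4 (log2 -1.35, -1.79 to -0.92).

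Smaller differences with intervals beyond 0 ran both ways in this comparison. Pcdh15 was at 0.70 (0.19 to 1.23) and Pcdhga12 at 0.51 (0.02 to 1.02), while Pcdh17 was at -0.79 (-1.21 to -0.38), Cdh13 at -0.53 (-0.86 to -0.20) and Pcdh10 at -0.28 (-0.44 to -0.12). With spots assigned by marker lists instead of clusters, the ratio of Pcdh20 was 0.37 and that of Pcdh8 0.95, both under 2-fold. Nectin1 was the 1 gene of 2 nectins measured that was 2-fold higher (log2 1.23, 1.01 to 1.46), and Jup the 1 of 6 catenins that was lower (-1.16, -1.45 to -0.88). None of 9 WAVE genes and none of 6 other superfamily genes passed 2-fold.

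The Tph2/Slc18a2 region was set against the 4 cortex regions. Of 34 members measured, 1 was at least 2-fold higher (7.96% of 8898 genes) and 3 lower (9.82% of genes), with a median log2 ratio of -0.05 against 0.04 over all genes. Cdh8 had 86.9 CPM in Tph2/Slc18a2 and 42.1 in cortex (89 and 341 UMIs, log2 1.04, 0.69 to 1.38). This call lies at the threshold: it was 0.91 with TMM scaling and -0.22 as UMIs per spot. Pcdh17 at 0.81 (0.51 to 1.10), Pcdh15 at 0.59 (0.12 to 1.04) and Pcdh9 at 0.32 (0.01 to 0.61) stayed under 2-fold.

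Pcdh1 was the firmest difference of this comparison, with 66.4 CPM in Tph2/Slc18a2 and 223 in cortex (68 and 1805 UMIs, log2 -1.75, -2.12 to -1.40). Pcdha12 had 8 and 161 UMIs (-1.35, -2.59 to -0.34) and Cdh22 8 and 131 (-1.05, -2.29 to -0.03), while Pcdh8 stood at -0.89 (-1.26 to -0.53). Both Pcdha12 and Cdh22 missed 2-fold in the lower array columns, at -0.98 and -0.65. Of 9 WAVE genes, 3 were at least 2-fold lower, Wasf1 (-1.65, -2.54 to -0.88), Abi2 (-1.39, -1.71 to -1.10) and Cyfip2 (-1.01, -1.20 to -0.82). None of 6 catenins, 8 other superfamily genes and 2 nectins passed 2-fold. The oligodendrocyte genes of the white matter list summed to 18597 CPM in Tph2/Slc18a2 and their part in these values was not tested.

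Against the rest, the single member at least 2-fold higher in Tph2/Slc18a2 was the clustered gene Pcdhb20 (4.65% of all genes). It had 27 UMIs there and 26.4 CPM, against 6.66 in all other spots (log2 1.98, 1.33 to 2.59).

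The Klk6/Gfap region carried the white matter list, whose 8 genes summed to 40085 CPM there, against 488 in C1ql2/Prox1. Cadherins and protocadherins were mostly lower in it. Of 56 members, 2 were at least 2-fold higher (9.49% of all genes) and 18 lower (15.5% of all genes), and the median log2 ratio was -0.44 against -0.13 over all genes. Several of the 18 rested on 1 UMI (Pcdhb7, Pcdhb13, Pcdhb19 and Cdh6) or 2 UMIs (Pcdhb20, Pcdha8, Pcdha12 and Cdh9), with intervals that reached above 0. Pcdh8 had 6 UMIs, 11.2 CPM against 100 in the rest (log2 -3.16, -4.61 to -2.04). Pcdh1 stood at -2.70 (-3.61 to -1.92), Cdh13 at -2.25 (-3.16 to -1.48) and Pcdha5, with 2 UMIs, at -2.23 (-5.28 to -0.36). Cdh13 and Pcdha5 missed 2-fold with marker-list regions, at -0.61 and -0.73.

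The 2 higher members rested on few UMIs and on how the region was drawn. Cdh23 had 31 UMIs, 57.9 CPM against 25.2 (log2 1.20, 0.63 to 1.72), in a region that borders Irx2/Spp1 on the map and carried 3 of 8 pons markers. Its ratio was -0.82 with all barcodes and -0.31 with marker-list regions. Cdh20 had 11 UMIs, 20.6 CPM against 9.04 (log2 1.19, 0.16 to 2.06), and 0.64 with marker-list regions.

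Of the 8 genes of the catenin list, 5 had a ratio above 0 in Klk6/Gfap. Among the 8, 3 were at least 2-fold higher, with the catenin-like Ctnnal1 as 1 of them, and 0 at least 2-fold lower. The median was 0.71. Ctnna3, or alpha-T-catenin, had 74.8 CPM there and 8.45 in the rest (log2 3.14, 2.61 to 3.65), Jup 249 and 107 (1.22, 0.95 to 1.47), and Ctnnal1, with 6 UMIs, stood at 1.13 (-0.35 to 2.30).

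Among the other partner lists in Klk6/Gfap, Wasf2, which encodes WAVE2, was higher at 1.40 (1.12 to 1.67), while the neuronal Wasf1 at -1.95 (-3.40 to -0.82), Abi2 at -1.42 (-1.90 to -0.97) and Cyfip2 at -1.20 (-1.51 to -0.91) were lower. Of 13 other superfamily genes, 2 were higher and 7 lower. Fat1 stood at 1.14 (0.81 to 1.45) and Fat2, with 12 UMIs, at 1.53 (0.55 to 2.37), against Clstn2 at -2.80 (-4.12 to -1.76), Celsr2 at -1.65 (-2.23 to -1.12), Celsr3 at -1.38 (-1.93 to -0.88) and Clstn3 at -1.005 (-1.27 to -0.75). Fat4, Dchs2, Cdhr1, Nectin2 and Nectin4 had 1 UMI each there. Of these, only the interval of Fat4 (log2 -3.61, -8.91 to -1.12) lay below 0.

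In the Mgp/Igf2 region, along the outer edge of the section, the vascular cadherin stood out. Cdh5, or VE-cadherin, the cadherin of endothelial junctions, had 48 UMIs there and 62.0 CPM, against 10.9 in the rest (log2 2.51, 2.03 to 2.97). It was the 1 of 56 members at least 2-fold higher (10.9% of all genes), and 16 were lower (13.4% of all genes), with a median log2 ratio of -0.70 against -0.16. Its lower and higher columns stood at 70.8 and 53.4 CPM. The next region was Ddn/Thrsp at 30.8 (log2 1.33, 0.55 to 2.02), where Cdh5 and Pcdhga1, with 7 UMIs, were the 2 members at least 2-fold higher (9.57% of all genes).

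The 5 endothelial markers measured summed to 281 CPM in Mgp/Igf2, where 4 of 5 were at least 2-fold higher than in the rest, to 259 in Ddn/Thrsp, where 5 of 5 were, and to 22.5 in C1ql2/Prox1, where Cdh5 stood at 5.63. They also summed to 178 CPM in Klk6/Gfap, where 3 of 5 were 2-fold higher and Cdh5 stood at 20.6 (log2 0.71, -0.31 to 1.57), and to 147 in Ttr/Slc6a3, where Cdh5 had 2 UMIs and 9.80 CPM. The interval of Cdh5 in Ttr/Slc6a3, 1.19 to 35.4 CPM, covered its levels in Klk6/Gfap and Ddn/Thrsp. Whether Cdh5 ranked with the endothelial sum there cannot be told from 2 UMIs. In none of Mgp/Igf2, Ddn/Thrsp and C1ql2/Prox1 was an endothelial marker at 0.

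Of the members low in Mgp/Igf2, several had only 1 to 9 UMIs there. Cdh8 had 9 UMIs (log2 -2.05, -3.18 to -1.12), Cdh23 3 (-2.80, -5.08 to -1.24), Cdh6 2 (-2.02, -5.08 to -0.15) and Pcdha3 1 (-2.50, -7.82 to -0.0025). In the lower array columns the ratio of Cdh6 was -0.05 and that of Pcdha3 -0.07. These rest on at most 2 UMIs and 1 UMI, or on a 0 set to 3 counts, and give no firm level there. The gamma genes Pcdhga6 (18 UMIs, 0.87, 0.09 to 1.55) and Pcdhgb4 (19 UMIs, 0.84, 0.09 to 1.51) had intervals just above 0 without reaching 2-fold.

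Of the 8 genes of the catenin list, 3 were higher in Mgp/Igf2 and 0 lower, with a median of 0.52. These were Ctnna3 at 1.92 (1.28 to 2.51), Ctnna1 at 1.53 (1.33 to 1.73) and the catenin-like Ctnnal1 at 1.20 (0.03 to 2.19). Of 9 WAVE genes, Wasf2 was higher at 1.63 (1.41 to 1.85) and Wasf1 lower at -1.91 (-3.05 to -0.98). Of 13 other superfamily genes, Fat1 was higher at 1.64 (1.41 to 1.87) and 9 were lower, with a median of -1.24. Among the 9, Celsr3 stood at -1.76 (-2.28 to -1.29), Celsr2 at -1.24 (-1.65 to -0.86), Clstn1 at -1.14 (-1.28 to -1.003), Clstn2 at -1.39 (-1.996 to -0.84) and Clstn3 at -1.38 (-1.63 to -1.14). Fat2 had 0 UMIs, 2.18-fold lower with the 0 set to 3 counts, and Fat3, Cdhr1 and Ret had 4, 2 and 2 UMIs.

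The clustered protocadherins were sparse gene by gene, so their summed levels were also compared, each sum over all genes of the rule in its cluster. The alpha and gamma genes share constant exons within their cluster, and which exons the probes bind is not given in the sources used here, so the split of UMIs among neighbours is uncertain. The 3 sums did not have the same map. The alpha sum (12 genes) was lowest in Ddn/Thrsp, at 37.7 CPM and a log2 ratio of -1.72 (-2.40 to -1.12), and in Mgp/Igf2, at 41.3 and -1.60 (-2.15 to -1.10). Klk6/Gfap followed at 59.8 (-1.05, -1.60 to -0.55), with Ttr/Slc6a3 at 58.8 from 12 UMIs. The other 11 regions lay between 97.6 and 156, highest in Myl4/Col5a1.

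The gamma sum (18 genes) was not low in those regions. It stood at 332 CPM in Ddn/Thrsp, 354 in Mgp/Igf2 and 307 in Klk6/Gfap, within a range of 245 in Gpr161/Fezf2 to 378 in C1ql2/Prox1 over all regions. The beta sum (21 genes) was lowest in Klk6/Gfap, at 52.3 and a log2 ratio of -0.98 (-1.57 to -0.44), and the other 14 regions lay between 85.3 and 122. Beside these, the 6 astrocyte markers summed to 3235 CPM in Ddn/Thrsp, 2660 in Mgp/Igf2, 3264 in Klk6/Gfap and 342 in C1ql2/Prox1, and the 5 microglial markers to 742, 671, 520 and 105 in the same order. The part of these cells in the alpha and gamma sums was not tested.

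**Figure D5:**
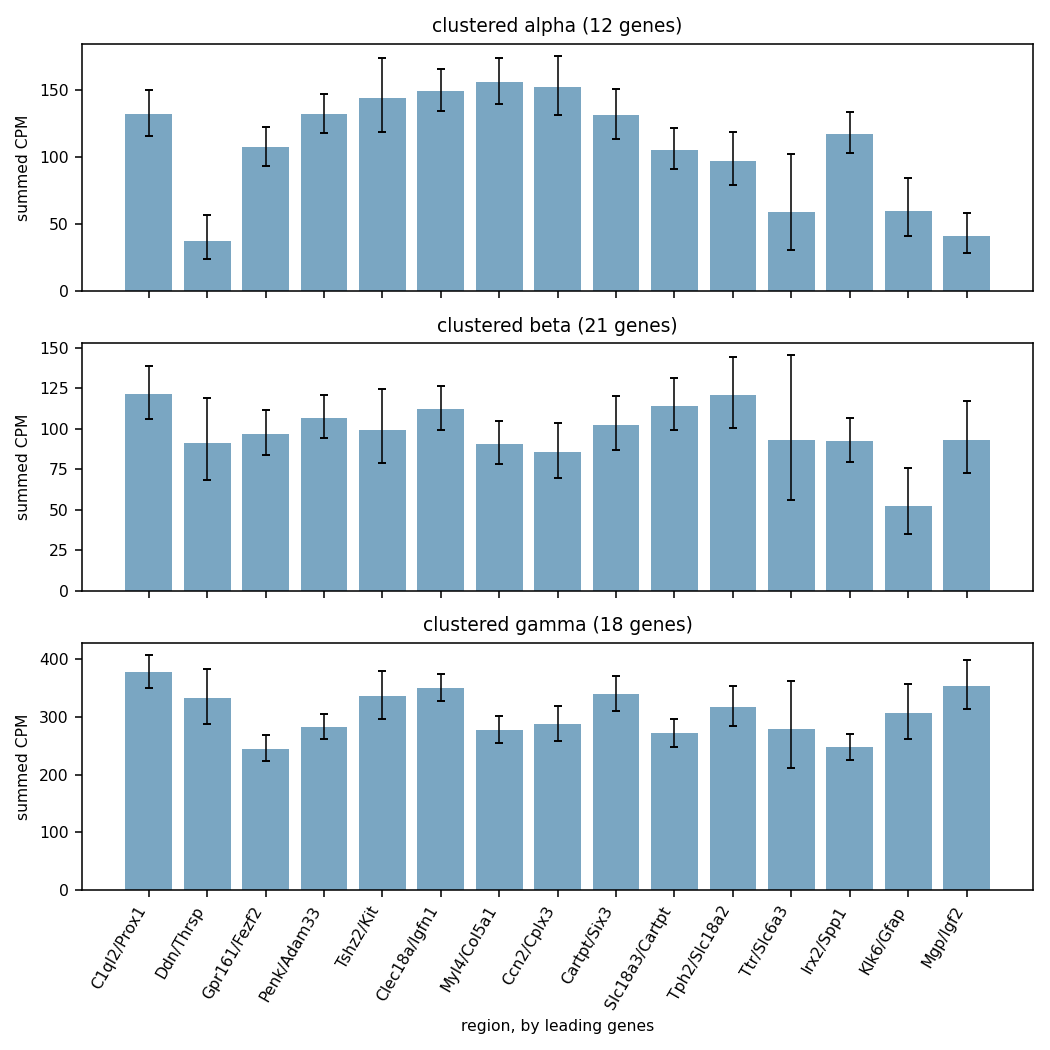
Summed CPM of the clustered alpha, beta and gamma genes in each of the 15 regions, with bars for the exact 95% counting interval. The alpha sum drops to 37.7 in Ddn/Thrsp and 41.3 in Mgp/Igf2, while the gamma sum stays between 245 and 378.

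Among single clustered genes, 1 of 8 alpha, 6 of 10 beta and 2 of 15 gamma members were at least 2-fold higher in 1 or more regions, where 40.9% of all genes were. Only ratios with an interval above 0 are given next, which leaves out Pcdhga1 in Ddn/Thrsp and Pcdhga3 in Ttr/Slc6a3, the 2 gamma members past 2-fold. In the alpha cluster, these ratios were led by Pcdha12 in Clec18a/Igfn1 (58 UMIs, log2 1.07, 0.62 to 1.49), Pcdha9 in Tshz2/Kit (18 UMIs, 0.93, 0.16 to 1.62), Pcdha3 in Irx2/Spp1 (24 UMIs, 0.88, 0.19 to 1.52) and Pcdha5 in Myl4/Col5a1 (54 UMIs, 0.65, 0.21 to 1.08). After Pcdhb20, the beta cluster was led by Pcdhb16 in C1ql2/Prox1 (44 UMIs, 1.21, 0.70 to 1.68), Pcdhb13 in Clec18a/Igfn1 (22 UMIs, 1.10, 0.34 to 1.79) and Pcdhb7 in C1ql2/Prox1 (22 UMIs, 1.05, 0.32 to 1.72). The gamma cluster was led by Pcdhga5 in Tph2/Slc18a2 (17 UMIs, 0.95, 0.14 to 1.68) and Pcdhga4 in C1ql2/Prox1 (28 UMIs, 0.95, 0.31 to 1.54), followed by Pcdhga6 and Pcdhgb4 in Mgp/Igf2. With Cdh6 at 1.13, Pcdha12 and Pcdhb13 were the 3 members at least 2-fold higher in Clec18a/Igfn1, against 2.22% of all genes.

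Of 2 well-counted clustered genes, Pcdhga9 (1091 UMIs) stayed within 2-fold over the section, between 37.1 CPM in Tph2/Slc18a2 and 70.4 in C1ql2/Prox1, while Pcdha7 (666 UMIs) was highest in Cartpt/Six3 at 44.0 and stood at 10.3 in both Ddn/Thrsp and Mgp/Igf2. Among the 14 regions with at least 500000 UMIs, the 33 clustered members had their highest level in 12 different ones, with 6 of them in Mgp/Igf2 and 5 each in C1ql2/Prox1 and Tph2/Slc18a2. Of the 23 non-clustered members, 4 were highest in C1ql2/Prox1, 4 in Gpr161/Fezf2 and 3 in Cartpt/Six3. Among the same 14 regions, Pcdha4 was highest in Gpr161/Fezf2, Pcdha8 and Pcdhga11 in Clec18a/Igfn1, Pcdha11 in Cartpt/Six3, Pcdhb12 and Pcdhgb6 in Tshz2/Kit, Pcdhb15 in Ccn2/Cplx3, Pcdhb17 in Penk/Adam33, Pcdhb18, Pcdhga3 and Pcdhga8 in Tph2/Slc18a2, Pcdhb19, Pcdhga7, Pcdhga10 and Pcdhgb2 in Mgp/Igf2, Pcdhga12 in C1ql2/Prox1, and Pcdhgb7 in Ddn/Thrsp.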

How the data were processed

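Fresh-frozen sections were profiled with Visium CytAssist v2 probes, per the labels. The authors deposited raw UMI counts for each gene in each spot, without normalization. Space Ranger 3.1.1 made them, per the file headers, and mm10 is named in the submitters' processing notes. Probe set version and counting settings: not given in the sources used here. Both matrices, of G2-3 and WT, were the same file and were used once, with the spots that the WT list marks as tissue and at least 500 UMIs.

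Spots were clustered with scanpy 1.11.5 (Leiden, resolution 1, seed 0, 2000 variable genes in at least 10 spots, counts scaled to 10000, 30 components, 15 neighbours), leaving out all genes of the rule and of the partner lists. Regions are called by the 2 genes with the highest ratio to the rest, leaving out 1 gene that is not reported here. Each marker list was assigned to the region with the most of its markers at 2-fold or more (CPM plus 10), a rule set after the clusters were seen. Counts were summed per region, and ratios have exact conditional (Clopper-Pearson) 95% intervals from scipy 1.17.1. Genes needed 100 UMIs over the spots compared. A 0 was set to 3 counts, and no ratio is given where that puts the 0 on the higher side. With 1 library there is no test and no p-value. No doublet caller or deconvolution was run. The ratio code was tested on simulated counts.

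Genes named are the 4 members per class with the largest ratio of a region to the rest among those with a lower bound above 0, the 4 highest and 4 lowest per comparison among those with an interval clear of 0, partner genes past 2-fold, and those at the minimum; further members were named after their values were seen. The members, lists and comparisons were chosen with earlier results of these data known. Alternatives were TMM scaling (edgeR 4.0.16), UMIs per spot, other minimums, all barcodes, other resolutions, members among the clustering genes, parts of the array, and regions from marker lists alone.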

Additional observations from a re-analysis of the deposited data

Results flagged for a closer look

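The 237 barcodes left out of all comparisons, 235 of them not marked as tissue in the WT list, also held counts of these genes. They had 1070 UMIs of the members among 697716 UMIs, or 1534 CPM, against 1774 CPM over the spots used, and all 56 members were seen there. Pcdh20 had 32 UMIs and Cdh5 22. The section has no control sample for these barcodes, and where their RNA came from was not tested.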

How the results depend on the processing

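Of 42 named ratios of at least 2-fold, 39 kept their direction and 25 also kept 2-fold under all of the 13 alternatives that gave a value, of which the parts of each region were chosen after seeing the data. As UMIs per spot, with no scaling by total, deep regions rise throughout: 55 members were at least 2-fold higher in 1 or more regions (23 as reported), and 31 differed between C1ql2/Prox1 and cortex (10), 24 between Tph2/Slc18a2 and cortex (4), 45 between Klk6/Gfap and the rest (20) and 36 between Mgp/Igf2 and the rest (17). So scaled, the log2 ratio of Cdh8 in Tph2/Slc18a2 over cortex was -0.22, and those of Cdh23 and Cdh20 in Klk6/Gfap over the rest were -0.16 and -0.17. In the lower array columns alone, 6 members differed between C1ql2/Prox1 and cortex and 13 in Klk6/Gfap, and in the higher array columns alone 13 were higher in 1 or more regions. In the higher columns of each region, the counts were 6 for C1ql2/Prox1, 1 for Tph2/Slc18a2 and 11 for Klk6/Gfap. A minimum of 20 UMIs per gene, which tests more genes, gave 9 for Tph2/Slc18a2 and 8 for Clec18a/Igfn1 over Myl4/Col5a1 (3). With spots assigned by marker lists, upper over deep cortex spots gave 1, and the 311 white matter spots over the rest gave 9. Cdh23 was -0.31 in those white matter spots, and -0.82 in Klk6/Gfap with all barcodes. Beyond what the construction of an alternative shows, the cause was not tested. Some comparisons gave no value in the lower or higher array columns, where a region had too few spots, and Mgp/Igf2 gave none at resolution 0.6. No paired analysis was possible because the 2 samples hold the same matrix. Few UMIs limit the clustered genes most, and no value has a replicate check.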
